A study of Mus musculus with 2 samples.

Results

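Aminoacyl-tRNA synthetases, the enzymes that load each tRNA with its amino acid, were examined together with the scaffold proteins that hold some of them in a complex. The members were the genes whose annotated symbol was that of a cytosolic or mitochondrial synthetase, plus the scaffold genes Aimp1, Aimp2 and Eef1e1. They came to 38 genes of the 19057 with a named probe, and to 81 probes: 19 genes for cytosolic enzymes or their subunits, 16 for mitochondrial enzymes and 3 for scaffold proteins. Of the 38 genes, 33 were above background on both arrays, 0 on 1 array only and 5 on neither array.

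The study profiled total RNA of leukaemic stem cells from mouse bone marrow on an Illumina bead array. Both groups carried MLL-AF9, a leukaemia-causing fusion of the genes Kmt2a and Mllt3, on a C57BL/6J background at a labelled age of 9 weeks. The groups were PirBTM MLL-AF9 and wild-type MLL-AF9, with 1 array each and both arrays on the same chip. What PirBTM changes in Pirb, an inhibitory receptor gene of myeloid and B cells, how many animals gave each RNA, and how the cells were sorted, are not stated in the labels. With 1 array a group, no replicate spread or test can be given, and every value below compares these 2 samples and not the genotypes at large.

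In the cytosol most synthetases work as free enzymes, while the enzymes for arginine, glutamate and proline, glutamine, isoleucine, leucine, lysine and methionine join the scaffold proteins in the multisynthetase complex. Mitochondria use a separate set, encoded in the nucleus and named with the suffix 2, to translate the few proteins of the mitochondrial genome. Uncharged tRNA activates the kinase GCN2, and the transcription factor ATF4, which acts downstream of it in the integrated stress response, is known to induce many cytosolic synthetase genes.

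The synthetase genes as a group were modestly dimmer on the PirBTM array. Log2 ratios below are PirBTM minus wild type, from background-corrected, quantile-normalized intensities, and a gene stands by its brightest probe. The median log2 ratio of the 33 members was -0.51, against -0.15 over the 9432 genes that passed background on an array. Below 0 were 32 of 33 members, or 97.0%, against 57.5% of all genes. A ratio below the median of all genes was found in 29 of 33 members, or 87.9%, where 50% of all genes lie there by construction. At least 1.5-fold lower were 13 of 33 members, or 39.4%, against 25.4% of all genes, and at least 1.5-fold higher were 0 of 33, against 19.5%. The count of lower members was 6 of 33 with cyclic loess, or 18.2% against 13.9% of all genes, and 3 of 33 with the scanner intensities as they are, or 9.09% against 6.81%. At least 2-fold lower were 4 members, or 12.1%, against 9.63% of all genes, and at least 2-fold higher were 0, against 12.8%. All 33 members were above background on both arrays, which is the closer comparison. The 7858 such genes had a median log2 ratio of -0.22, and 63.1% were below 0. Of these genes 27.1% were at least 1.5-fold lower and 16.2% at least 1.5-fold higher. At least 2-fold lower were 9.8% of them, and at least 2-fold higher 9.75%. The share of members past 2-fold downward was thus near that of all genes, and it was the upper side of the distribution that held few members.

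The 33 ratios lay between -1.29 and 0.51, with quartiles of -0.75 and -0.32. The quartiles of all genes were -0.62 and 0.50, and those of the genes above background on both arrays -0.62 and 0.27. The commonest ratios of all genes were -0.5 to -0.4, the fullest bin of width 0.1 with 543 genes, and the median of the members, -0.51, fell just under that bin. Above the highest member, at 0.51, lay 24.9% of all genes. Restricting all genes to the intensities between the lower and upper quartile of the members gave 2831 genes with a median log2 ratio of -0.18. The members were therefore low against the median of all genes, but close to the ratio that was commonest on these arrays.

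**Figure D1:**
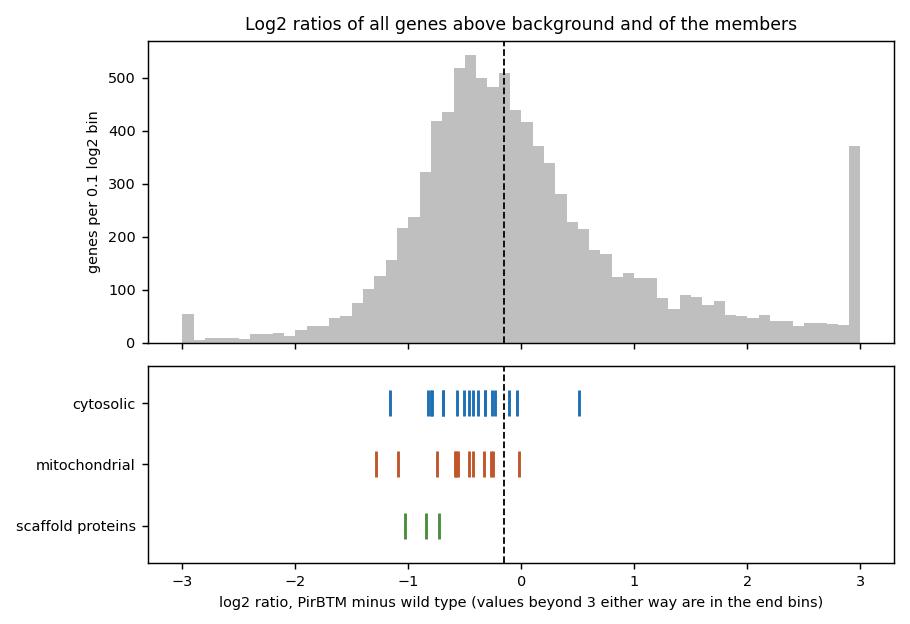
Upper panel: number of genes per 0.1 bin of the log2 ratio, PirBTM minus wild type, for the 9432 genes that passed background on an array. Lower panel: 1 line for each of the 33 members above background; the dashed line is the median of all genes, -0.15, and 29 members lie to its left.

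The ratio of a single probe carried a measuring SD of 0.30, estimated from 2944 genes read by a pair of probes on each array. It was 0.33 where the dimmer probe of the pair was under 8 on the log2 scale, 0.30 from 8 to 10, and 0.17 at 10 or more, so the bright members are the better measured. This error leaves out differences between animals, sorts and RNA preparations. Within 1 measuring SD of the median of all genes lay 13 of 33 members, and 9 differed from it by more than 0.59, which is 2 such SDs.

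The samples also differed in markers of other cells, and by more than the synthetases did. Of the macrophage markers with a named probe, 8 of 8 were higher in PirBTM, where 57.5% of all genes were lower. Their summed scanner intensities were 65800 in the PirBTM sample and 6528 in the wild-type sample. Red cell markers summed to 36570 and 1309, B cell markers to 7715 and 2193, and T and NK cell markers to 2537 and 768.7, and each marker above background was higher in PirBTM (7, 5 and 5 markers). On the wild-type array Cd163, Klf1, Ermap, Rhag, Cd22, Ms4a1, Ebf1, Blk, Cd3e, Cd3g, Cd3d and Klrd1 were not above background. These markers passed the filter by their PirBTM value alone, which favours a higher value in PirBTM. Above background in both samples were 7 macrophage markers, 4 red cell markers, Cd79b for B cells and Ccl5 for T and NK cells. Cd79b and Ccl5 had log2 ratios of 1.56 and 2.85. Markers of leukaemic progenitors went the other way in 9 of 9 (57.5% of all genes were lower). Of these, Hoxa10, Cd34, Eya1 and Mecom were not above background on the PirBTM array. They passed through the wild-type array alone, so the filter favoured a lower value in PirBTM for them. Hoxa9, Hoxa7, Meis1, Kit and Myb were above background on both arrays and Flt3 on neither, so the labelled stem cell type was only partly borne out for the PirBTM sample. Proliferation genes were lower in 8 of 8 (57.5% of all genes), with a median log2 ratio of -0.88. The part of these differences in the synthetase ratios was not tested, and in bulk RNA fewer cells of a type and less RNA per cell cannot be told apart. Pirb had no named probe here, so the arrays offer no check of the genotype labels.

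Within the cytosolic set, the enzymes of the multisynthetase complex and its scaffold proteins had the lowest ratios as a group. The 7 enzyme genes had a median log2 ratio of -0.69, the 3 scaffold genes -0.84, and the 11 cytosolic genes outside the complex -0.38. With enzymes and scaffolds joined, 7 of the 10 complex genes were at least 1.5-fold lower in PirBTM, against 2 of the 11 others (25.4% of all genes). These counts depended on the scaling: with cyclic loess they were 3 of 10 and 1 of 11 (13.9% of all genes), and with the scanner intensities as they are 2 of 10 and 0 of 11 (6.81% of all genes). Relative to the median of all genes the medians were -0.54 for the enzymes, -0.69 for the scaffolds and -0.22 for the genes outside. The order of enzymes below outside genes held in every processing alternative, with relative medians from -0.65 to -0.47 against -0.37 to -0.15.

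Qars, the glutaminyl-tRNA synthetase, had a normalized log2 intensity of 11.61 in the PirBTM sample and 12.42 in the wild-type sample, 1.74-fold lower. Its 3 probes above background gave log2 ratios of -0.80, -0.81 and -0.94, so this difference was seen by separate probes and at intensities where the error is small. Eprs, which makes the joined glutamate and proline enzyme, read 8.84 and 9.67, 1.77-fold lower, and its probes gave -0.83, -0.76 and -0.68. Rars, for arginine, read 9.81 and 10.51, with -0.69 and -0.67 from its pair of probes. In these 3 genes the probes above background lay well below the median of all genes and close to each other.

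Kars, the lysine enzyme, whose gene supplies both the cytosol and the mitochondria, read 9.99 in the PirBTM sample and 10.69 in the wild-type sample, 1.62-fold lower. Its second probe, dimmer at 6.95 and 8.35, gave a log2 ratio of -1.39 beside -0.69, so the probes shared the direction and not the size. Lars, the leucine enzyme, which also acts as a leucine sensor for mTORC1 in human cells, read 11.77 and 12.20, with log2 ratios of -0.43 and -0.70. Iars, for isoleucine, gave -0.32 and -0.48. Mars1, for methionine, read 9.05 and 9.16 by its brightest probe, a log2 ratio of -0.11, and its other probe gave -0.63. The complex enzymes thus ran from Eprs and Qars, well below the median of all genes, to Mars1, whose brightest probe could not be told from the median of all genes.

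The scaffold proteins have no enzyme activity and hold the complex together. Aimp1, which is also the precursor of the cytokine EMAP II, read 10.95 in the PirBTM sample and 11.80 in the wild-type sample, 1.80-fold lower by its single probe. Eef1e1 read 8.91 and 9.63, 1.66-fold lower, also by a single probe. Aimp2 read 8.74 and 9.77 by its brightest probe, 2.04-fold lower, but its second probe, of nearly equal brightness on the PirBTM array (8.72), read 9.02 on the wild-type array and gave only -0.30. The fold of Aimp2 therefore depends on the probe, and the mean of its probes would place it nearer to the other genes.

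**Figure D2:**
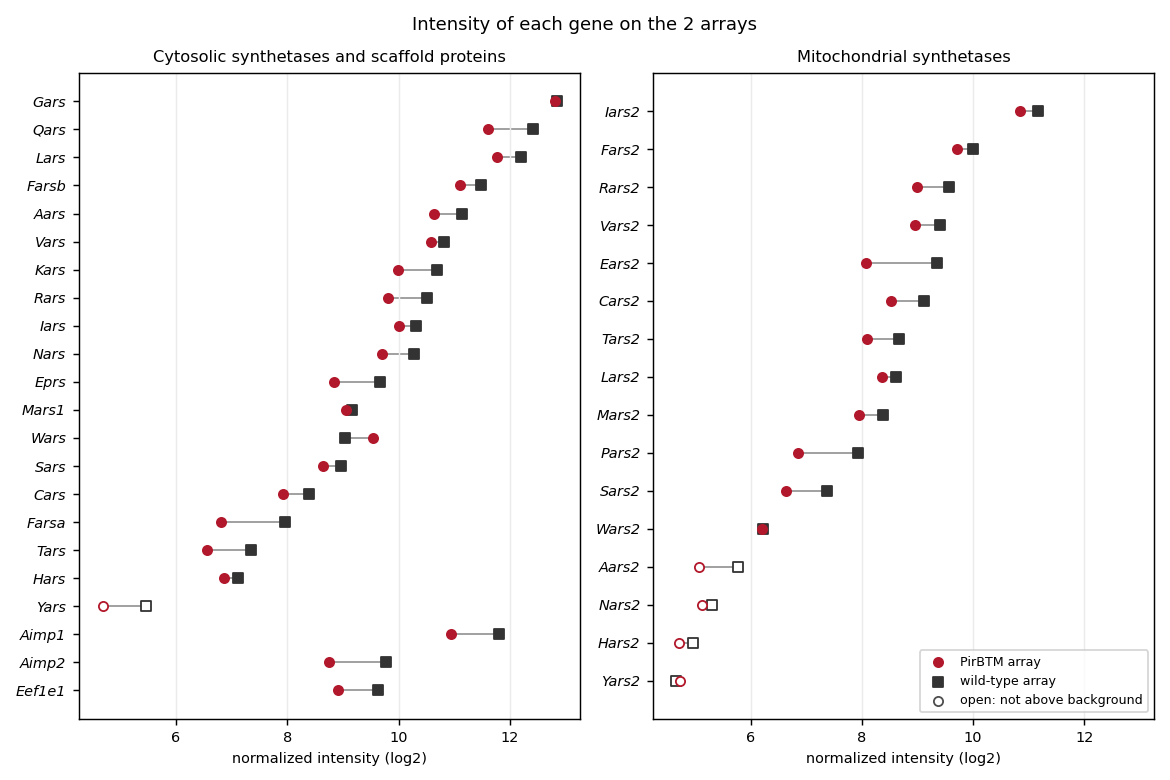
Normalized log2 intensity of each member on the PirBTM array (circles) and the wild-type array (squares), by the brightest probe of the gene; open symbols were not above background. Of the 33 members with filled symbols, Wars alone has its circle to the right of its square with this normalization, and intensities of different genes are not comparable because each probe binds differently.

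Among the cytosolic enzymes outside the complex, Wars was the exception. Wars, the tryptophan enzyme, whose human counterpart is induced by interferon gamma, read 9.54 in the PirBTM sample and 9.03 in the wild-type sample, 1.42-fold higher. With quantile normalization it was the 1 member of 33 with a ratio above 0. The other 3 probes of Wars, all dimmer, gave log2 ratios of 0.13, -0.04 and -0.19. The higher value thus rests on the brightest probe, and the mean of its probes had a ratio of 0.10. Of genes known to respond to interferon gamma, 12 of the 17 with a named probe were above background on an array. Of these 12, 11 were higher in the PirBTM sample, where 57.5% of all genes were lower. At least 1.5-fold higher were 8 (19.5% of all genes), and the median log2 ratio was 1.03. Among the 12, 2 passed through the PirBTM array alone, which favours a higher value. With detection on both arrays the median was 0.85. Gbp4, Gbp5, Gbp6, Cxcl10 and Socs1 were above background on neither array.

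In that interferon gamma list, Ciita, the activator of MHC class II genes, was at least 12.6-fold higher and Gbp2, a guanylate-binding protein, 10.5-fold higher. At its other end, Irgm1, an immunity-related GTPase, had a log2 ratio of 0.26 and Psmb8, an immunoproteasome subunit, -0.39. Wars lay between Irgm1 and the median of that list, and the macrophage and lymphocyte markers above were higher on the PirBTM array. A part of interferon gamma or of these cells in the Wars value was not tested.

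The phenylalanine enzyme is built from an alpha subunit, encoded by Farsa, and a beta subunit, encoded by Farsb. Farsa read 6.80 in the PirBTM sample and 7.95 in the wild-type sample, 2.23-fold lower by its single probe. Farsb read 11.10 and 11.48, with log2 ratios of -0.38 and -0.50 from its probes. The 2 subunits of this enzyme therefore had unequal ratios, but Farsa was read by a dim probe (scanner intensities of 262.7 and 332.8 over a background near 140). Over the processing alternatives its log2 ratio ranged from -1.16 to -0.34, so its size is uncertain. Tars, for threonine, was dim as well at 6.56 and 7.35, with a log2 ratio of -0.79 and a range from -0.79 to -0.09.

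Gars, which supplies the glycine enzyme of both cytosol and mitochondria, read 12.81 in the PirBTM sample and 12.85 in the wild-type sample. Its log2 ratio of -0.04 stood slightly above the median of all genes, and its sign turned in 2 of 11 processing settings. Vars, for valine, gave log2 ratios of -0.23, -0.21 and 0.23 from its probes, of which the last was the dimmest. Aars, for alanine, read 10.63 and 11.14, with a log2 ratio of -0.51, and Nars, for asparagine, had -0.57. Cars, Sars and Hars, for cysteine, serine and histidine, had log2 ratios of -0.46, -0.32 and -0.26 and differed from the median of all genes by no more than about the error of a probe. Yars, for tyrosine, was not above background on either array.

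Several cytosolic synthetase genes hold the ATF4-C/EBP element near their start site, and these promoters are shown because ATF4 is a known regulator of many cytosolic synthetase genes. The motif searched was TGATGNAA on both strands, in the 300 bases of each RefSeq promoter (GRCm38.p6), 250 before and 50 after the gene's start, and 29 of the 38 members had such a promoter, 12 of the 19 cytosolic genes among them. It was found in 5 of 12 cytosolic genes (Aars, Gars, Iars, Tars and Yars), 0 of 14 mitochondrial genes and 0 of 3 scaffold genes. Of all promoters 4.51% held it, and 2.78% of the 7704 that were above background on an array. The holders above background were Aars (chr8:111033722-111033891, plus strand), Gars (chr6:55037881-55038050, plus strand), Iars (chr13:49682010-49682179, plus strand) and Tars (chr15:11399609-11399778, minus strand). Their sequences, 120 bases before to 50 after the start in the direction of the gene, are given with the motif in capitals.
Aars: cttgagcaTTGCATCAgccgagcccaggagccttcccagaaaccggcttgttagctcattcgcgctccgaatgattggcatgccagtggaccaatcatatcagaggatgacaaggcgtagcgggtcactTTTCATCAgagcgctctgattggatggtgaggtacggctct
Gars: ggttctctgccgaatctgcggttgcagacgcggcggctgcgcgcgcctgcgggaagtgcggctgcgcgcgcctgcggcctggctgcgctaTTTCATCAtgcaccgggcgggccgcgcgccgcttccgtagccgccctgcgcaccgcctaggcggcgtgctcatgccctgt
Iars: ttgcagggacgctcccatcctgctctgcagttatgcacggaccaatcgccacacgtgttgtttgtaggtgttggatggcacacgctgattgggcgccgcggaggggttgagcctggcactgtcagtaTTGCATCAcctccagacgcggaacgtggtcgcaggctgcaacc
Tars: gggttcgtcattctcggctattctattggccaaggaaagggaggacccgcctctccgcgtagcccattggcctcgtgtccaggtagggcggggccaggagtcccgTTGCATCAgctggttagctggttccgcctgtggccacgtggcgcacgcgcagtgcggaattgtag
In all 4 the motif reads in its reverse form, TTGCATCA or TTTCATCA. Counted from the start of the gene, with bases before it negative, the motif begins at -112 and at 10 in Aars, at -30 in Gars, at 8 in Iars and at -15 in Tars. The log2 ratios of these genes were -0.51, -0.04, -0.32 and -0.79, against a range of -1.16 to 0.51 in the cytosolic set. A match of letters is no evidence that a factor binds there.

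Other motifs were spread differently. The E-box CACGTG, which MYC and related factors bind, lay in 4 of 12 cytosolic genes (Aars, Farsb, Iars and Tars) and in 1 of 14 mitochondrial genes (Ears2), against 8.09% of all promoters and 925 of the 7704 genes above background on an array. The YY1 motif AAGATGGC lay in 3 of 14 mitochondrial genes (Aars2, Wars2 and Yars2), in Farsa and in Eef1e1, against 3.19% and 5.69%. The ETS motif CCGGAAG was found in 11 of the 29 members, or 37.9%, against 9.93% of all genes and 21.0% of those above background. The NRF1 motif, a palindrome, lay in 0 of the 29 members, against 1.07% of all promoters. The motifs did not overlap the ATF4-C/EBP matches, and both strands were searched for each.

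The mitochondrial enzymes were lower to about the same degree as the cytosolic ones. Of 16 genes, 12 were above background, all 12 had ratios below 0 (57.5% of all genes), and 11 lay below the median of all genes. Their median log2 ratio was -0.51, against -0.44 for the 18 cytosolic genes above background. The difference of these medians, 0.06, was small beside the error of a probe, and it lay between -0.08 and 0.11 over the processing alternatives. At least 1.5-fold lower were 4 of 12 mitochondrial and 6 of 18 cytosolic genes (25.4% of all genes).

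Where an amino acid has an enzyme gene above background in each compartment, the cytosolic ratio was the lower in 5 of 13 pairs, with a median difference of 0.13, cytosolic minus mitochondrial. Both Farsa and Farsb were paired with Fars2, and Eprs with both Ears2 and Pars2, so the pairs are not all separate. The pair for isoleucine was nearly equal, with log2 ratios of -0.32 for Iars and -0.33 for Iars2. The widest difference downward was that of Farsa and Fars2 (-1.16 and -0.27), and the widest upward that of Wars and Wars2 (0.51 and -0.02). Both of these rest on probes described above as uncertain. The median difference was smaller than the measuring SD of a probe.

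Ears2, which loads glutamate in mitochondria, had the lowest ratio of all members. It read 8.07 in the PirBTM sample and 9.36 in the wild-type sample, 2.44-fold lower by the 1 probe of its 2 that was above background. Of all genes, 5.66% had a lower ratio. Over the alternatives its log2 ratio ranged from -1.29 to -0.68, and relative to the median of all genes from -1.24 to -0.83. Pars2, for proline, read 6.85 and 7.94, 2.13-fold lower, and a second dim probe gave -1.13 beside -1.09. All probes of Pars2 were faint, a further one being above background on the PirBTM array alone, and with the scanner intensities as they are its log2 ratio was -0.31.

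Mitochondria make glutaminyl-tRNA by a detour: Ears2 also loads glutamate onto the glutamine tRNA, and an amidotransferase of the subunits encoded by Gatb, Gatc and Qrsl1 converts it. Gatb read 6.09 in the PirBTM sample and 7.56 in the wild-type sample, 2.77-fold lower near background. Qrsl1, named here because it completes the route, had a log2 ratio of -0.54 and Gatc, at 10.50 and 10.78, of -0.28. The genes of this route were thus all below the median of all genes, by very unequal amounts.

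Rars2, for arginine, gave log2 ratios of -0.58, -0.75 and -0.87 from its probes, and Cars2, for cysteine, -0.59 and -0.88. Sars2, for serine, was dim with -0.75. Tars2, Vars2 and Mars2, for threonine, valine and methionine, had log2 ratios of -0.56, -0.46 and -0.43. Those of Iars2, Fars2 and Lars2, for isoleucine, phenylalanine and leucine, were -0.33, -0.27 and -0.25, within about a probe's error of the median of all genes. Wars2, for tryptophan, read 6.21 and 6.23 and was the 1 mitochondrial gene above that median. Aars2, Hars2, Nars2 and Yars2 were not above background on either array, and no difference is given for them.

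Of the 33 members, 17 had several probes above background on both arrays, and the probes had opposite signs in 2 of them, Wars and Vars. The median range between the probes of a gene was 0.27, and the widest, 0.73, was that of Aimp2. Counting probes rather than genes, 53 of 56 probes above background on both arrays had a ratio below 0 and 49 lay below the median of all genes. Of all genes 57.5% were below 0, and of those above background on both arrays 63.1%. The low ratios were thus spread over most probes, although probes of 1 gene share their RNA and their arrays and are no replicates.

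**Figure D3:**
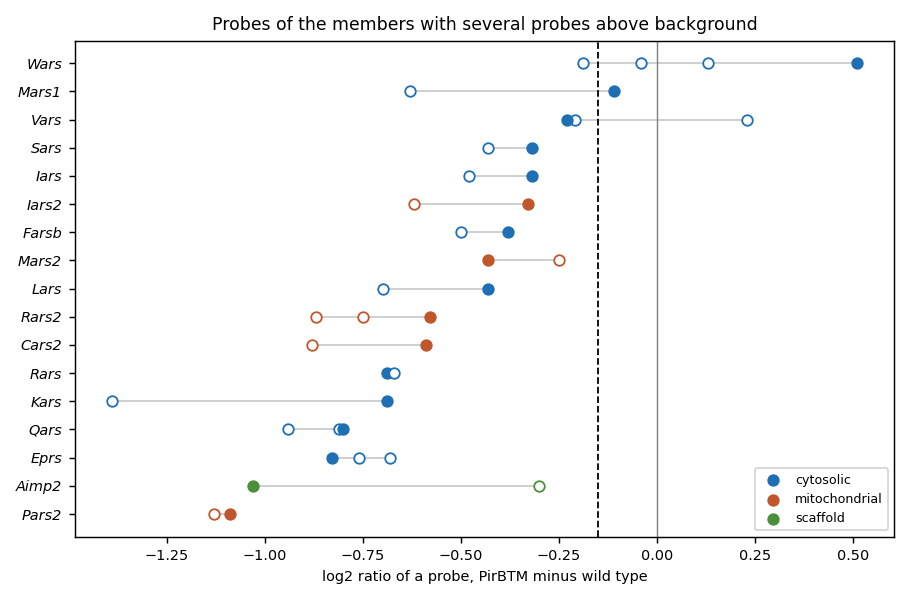
Log2 ratio, PirBTM minus wild type, of each probe above background on both arrays, for the 17 members with several such probes; filled points are the brightest probe of a gene, and the dashed line is the median of all genes, -0.15. The probes of Qars, Eprs, Rars and Pars2 lie close together, and those of Kars, Aimp2 and Wars lie far apart.

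Genes that serve the same step but are no synthetases of the list were lower to a like degree. Of 10 accessory and synthetase-like genes above background, 10 had ratios below the median of all genes, with a median log2 ratio of -0.55, and 4 were at least 1.5-fold lower (25.4% of all genes). Dtd1, which removes D-amino acids from tRNA, was 3.09-fold lower (7.79 in the PirBTM sample and 9.42 in the wild-type sample), followed by Gatb. At the other end were Gatc and Sepsecs, the selenocysteine synthase, with log2 ratios of -0.28 and -0.33. The list thus lay about as low as the synthetases.

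Genes of tRNA processing and modification had a median log2 ratio of -0.49, and 29 of 31 were below 0. Of all genes 57.5% were below 0, and of those above background on both arrays 63.1%. At least 1.5-fold lower were 9, or 29.0%, close to the 25.4% of all genes, and 0 were at least 1.5-fold higher (19.5% of all genes). Adat2, a subunit of the tRNA adenosine deaminase, was 3.72-fold lower (8.98 and 10.88), and Nsun2, a tRNA cytosine methyltransferase, 2.76-fold lower. Tsen34, of the tRNA splicing endonuclease, and Trmt61a, of a tRNA methyltransferase, had log2 ratios of 0.49 and 0.18. Like the synthetases, these genes clustered around the commonest ratio of all genes, with few on the upper side.

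Targets of the integrated stress response, which share ATF4 as a regulator with the cytosolic synthetases, did not follow them as a list. Of 19 above background, 9 had ratios below 0 (57.5% of all genes) and 10 above, with a median log2 ratio of 0.02. At least 1.5-fold lower were 3 (25.4% of all genes) and at least 1.5-fold higher were 5 (19.5% of all genes). Atf4 itself had a log2 ratio of -0.08, and Asns, the asparagine synthetase that makes the amino acid loaded by Nars, 0.32. Below the median of all genes, as most synthetases were, lay 7 of the 19. Among these were Mthfd2, Atf5, Shmt2 and Aldh18a1, with log2 ratios of -0.63, -0.56, -0.49 and -0.27. All of these genes were chosen after their values were seen, Atf4 and Asns included. Nupr1, a stress-induced nuclear protein gene, was 12.2-fold higher, and Ppp1r15a, a phosphatase subunit that ends the response, 10.5-fold higher. Psat1, of serine synthesis, was 2.92-fold lower (10.42 in the PirBTM sample and 11.97 in the wild-type sample), and Vldlr, a lipoprotein receptor, at least 1.63-fold lower. Ppp1r15a is also an early response gene of stimulated cells, and macrophage and other mature cell markers had more signal on the PirBTM array. Whether either bears on the Ppp1r15a value was not tested. A part of ATF4 in the synthetase ratios was not tested either.

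Among sensors and phosphatases of the response, 5 were above background. Ppp1r15b, a phosphatase subunit, was 2.11-fold higher and Eif2ak1, the kinase that senses haem, 1.57-fold higher in the PirBTM sample. The red cell markers were higher in that sample too, and a link of Eif2ak1 to them was not tested. Eif2ak3, the kinase of the endoplasmic reticulum, lay near background and was at least 1.20-fold higher, while Eif2ak2, the kinase that senses double-stranded RNA, had a log2 ratio of -0.30. Eif2ak4, which encodes GCN2, was not above background.

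Amino acid transporters, which supply the substrates, were mixed. Of 10 above background 7 had ratios above 0, where 57.5% of all genes were below 0. But 3 of the 10 passed through the PirBTM array alone, so the filter favoured a ratio above 0 for them. The median log2 ratio of the transporters was 0.70, or 0.31 with the bound in place of the ratio for genes above background on 1 array only. For the 7 transporters above background on both arrays it was 0.11. At least 1.5-fold higher were 4 (19.5% of all genes) and at least 1.5-fold lower was 1 (25.4% of all genes). Slc6a9, a glycine transporter also used by red cell precursors, was at least 12.2-fold higher and Slc43a1, a transporter of large neutral amino acids, at least 8.75-fold higher. Slc38a1 and Slc1a5, both glutamine transporters, had log2 ratios of -0.82 and -0.27. Slc6a9 and Slc43a1, which are among the 4 at least 1.5-fold higher, were not above background on the wild-type array. The red cell markers were higher on the PirBTM array, and a link of the transporters to them was not tested.

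**Figure D4:**
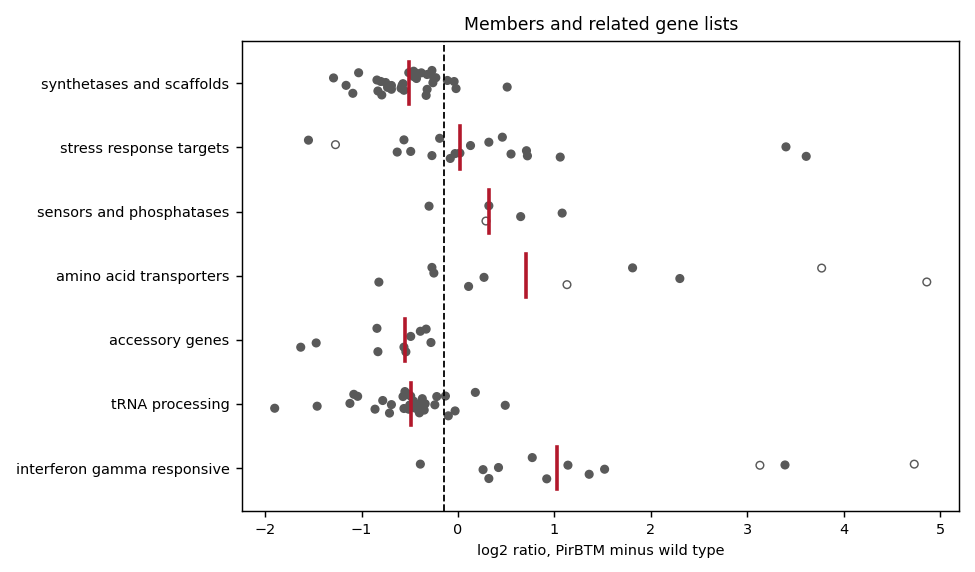
Log2 ratio, PirBTM minus wild type, of each gene that passed background on an array, for the members and 6 related lists; red bars are medians, open points were above background on 1 array only, and the dashed line is the median of all genes, -0.15. The members, the accessory genes and the tRNA processing genes have medians of -0.51, -0.55 and -0.49, and the other lists have medians above 0.

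The direction of small differences depended on how the arrays were scaled, since the median of all genes itself moved from -0.15 to 0.10 with cyclic loess and to 0.16 with the scanner intensities as they are. The sign of Cars, Gars, Hars, Mars1, Sars, Vars, Fars2, Lars2, Mars2 and Wars2 turned, or reached 0, in at least 1 setting, so members are best read against that median. Below it lay 29 of 33 members with quantile normalization, cyclic loess, median scaling, the authors' deposited values and the scanner intensities as they are, although only 22 of 33 had a ratio below 0 in the last. Relative to it, Qars ranged from -0.84 to -0.58 over the settings and Aimp1 from -0.84 to -0.62. Wars ranged from 0.28 to 0.73.

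**Figure D5:**
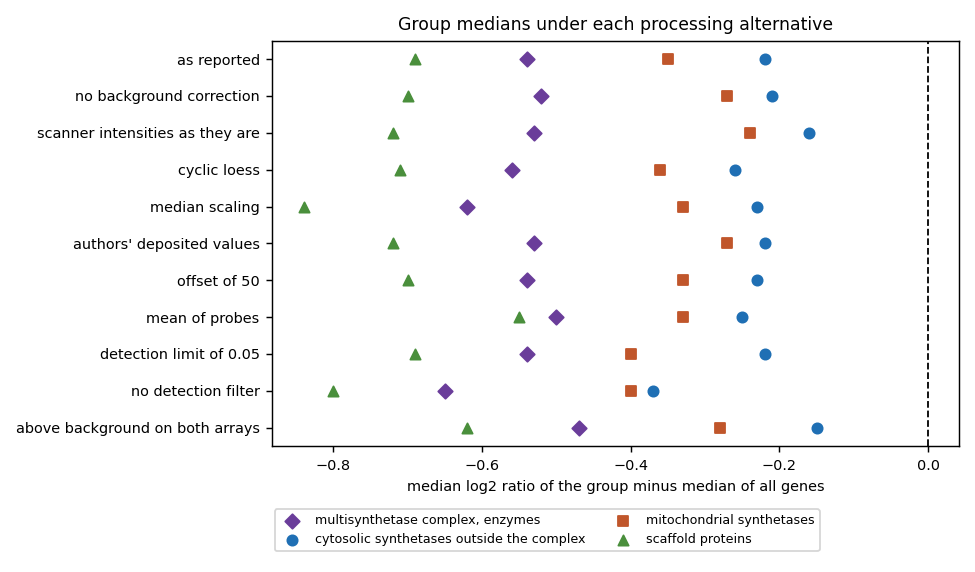
Median log2 ratio of 4 groups of members minus the median of all genes, under each processing alternative. All medians lie below 0, the complex enzymes between -0.65 and -0.47 and the cytosolic genes outside the complex between -0.37 and -0.15.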

How the data were processed

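Biotin-labelled cRNA of 2 samples was read on 2 positions of 1 Illumina BeadChip, per the labels. The deposited scanner table lists 45281 probes and, per the file headers, gives each one's mean intensity, linear and not normalized (array medians of 161.3 for PirBTM and 148.2 for wild type). Beside it stands the scanner's detection p-value, also as deposited. A second deposited table holds quantile-normalized linear intensities, with medians of 148.3 and 148.2. The software behind it is not stated in the labels or headers. Genotype and array position cannot be told apart.

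Background was corrected with limma 3.58.1 (R 4.3.3) by normexp, with its background estimated through the detection p-values (nec, offset 16; background 147.2 and 139.3). Values were quantile normalized and taken to log2. Platform annotation gave 1 gene for 34885 probes; all 38 member genes matched the RefSeq table by identifier. A gene passed background where its detection p-value was under 0.01, and stood by its brightest probe. Where 1 array only was above background, the fold is a lower bound against the higher of the dim value and the lowest value above background on that array. Arrays give no counting interval; their number limits the precision. The steps were tested on simulated arrays with known folds. Only a small set of bright probes was changed there, equally up and down. The simulation therefore cannot show how the scaling behaves where many genes differ, as on these arrays.

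All members are named; of each related list the 2 highest and 2 lowest ratios are named. Members and lists were chosen with earlier results of these data known. Alternatives were no background correction, an offset of 50, cyclic loess, median scaling, the deposited values, the mean of probes, a detection limit of 0.05, no detection filter, and detection on both arrays; the scanner intensities as they are were added after seeing the data.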

Additional observations from a re-analysis of the deposited data

How the results depend on the processing

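No paired analysis was possible because each group had 1 array, and leaving out a replicate was not possible either. Of 140 values of group medians and counts under the 10 alternatives, 89 stayed within a set limit and 49 moved past it. In 2 the median of all genes turned in sign. Of 370 values of single members, 40 moved past their limit. These limits are no replicate spread, which 1 array a group cannot give. The small difference of cytosolic and mitochondrial medians also turned in sign, under median scaling, the scanner intensities as they are (-0.05) and no detection filter (-0.01). Why values moved was not tested. With cyclic loess the median log2 ratio of all genes was 0.10, of the cytosolic synthetases -0.18 and of the mitochondrial ones -0.26; 6 members were at least 1.5-fold lower and 1, Wars, higher. With the scanner intensities as they are, chosen after seeing the data, these values were 0.16, -0.13, -0.08, 3 and 1 (Wars), and the mitochondrial median relative to all genes was -0.24. With median scaling the median of all genes was -0.02, the mitochondrial median -0.35, the difference of cytosolic and mitochondrial medians -0.08, the cytosolic median relative to all genes -0.41, and 1 member (Wars) was at least 1.5-fold higher. With no background correction and with the deposited values the mitochondrial median was -0.37. With no detection filter the median of all genes was -0.05 and the relative cytosolic median -0.41.

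For the related lists, given in the order stress response targets, sensors, transporters, accessory genes, tRNA processing and interferon gamma genes, cyclic loess gave medians of 0.31, 0.56, 0.91, -0.29, -0.22 and 1.28, and the scanner intensities as they are gave 0.30, 0.56, 0.50, -0.17, -0.07 and 1.17. Median scaling gave 0.33 for stress response targets, 0.58 for sensors and -0.32 for tRNA processing. The transporters, a list with several genes above background on 1 array, had 0.31 with no background correction, 0.28 with the deposited values, 0.48 with an offset of 50, 0.27 at a detection limit of 0.05, 0.26 with no detection filter and 0.11 with detection on both arrays. The tRNA processing genes had -0.35 with no background correction, -0.34 with the deposited values and -0.42 with no detection filter. The interferon gamma genes had 0.91 with no background correction, 0.92 at a detection limit of 0.05, 0.77 with no detection filter and 0.85 with detection on both arrays. The accessory genes had -0.43 with the deposited values and -0.72 with the mean of probes, and the sensors 0.57 with the mean of probes. Signal over background limits the faint members, Farsa, Pars2, Tars, Sars2, Hars and Wars2 most.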
